A study of Mus musculus with 18 samples.

Results

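The Kcn genes encode the pore-forming and auxiliary subunits of potassium channels, and their trimethylation of histone H3 at lysine 27 (H3K27me3) was followed here in the medial ganglionic eminence (MGE) of the mouse embryo. Every autosomal protein-coding gene of the GRCm38 annotation whose symbol starts with Kcn was taken, which gave 92 of 20665 autosomal protein-coding genes. The mark was mapped with bulk CUT&Tag, in which an antibody directs a transposase to cut DNA beside the mark, at embryonic days E12.5 and E15.5. Each stage had 3 libraries labelled WT and 3 labelled KO for Ezh2, numbered as biological replicates, and heterozygous samples were not analysed here. Males of genotype Nkx2.1-CreC/C;Ezh2F/+ had been mated with Ai9F/F;Ezh2F/+ females, so a Cre allele under Nkx2.1 and an Ai9 reporter allele were present in both groups by the cross, and the KO embryos were labelled Nkx2.1-CreC/+;Ezh2;Ai9F/+. Recombination was limited to cells that had used the Nkx2.1 driver, and embryos of 1 genotype were pooled where applicable, per the labels. The whole MGE was taken at E12.5, whereas dissection at E15.5 was guided by the red fluorescence of the reporter, so stage and dissection cannot be told apart.

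H3K27me3 is deposited by the Polycomb repressive complex PRC2, of which Ezh2 is a catalytic subunit, and it covers developmental genes that are not transcribed in a given cell. Potassium channels set the resting potential of neurons, end action potentials and shape firing rate. The MGE produces cortical interneurons, among them the fast-spiking parvalbumin cells, whose rapid repolarisation depends on the Kv3 channels encoded by Kcnc1 and Kcnc2 once the cells have matured.

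The 12 libraries held between 5008 and 13289 intervals, each with a count, and the depth recovered from the interval scores ran from 0.0751 to 0.698 reads per 200 bp. The E15.5 WT libraries were the shallowest, at 0.0751 to 0.150, against 0.117 to 0.698 in E12.5 WT, 0.212 to 0.272 in E12.5 KO and 0.179 to 0.346 in E15.5 KO. A gene was given the summed count of all intervals that overlapped its body or 2500 bp on either side, and a normalised count is that sum divided by the library's depth and multiplied by the mean depth of the 12 libraries. Ezh2 itself had an interval in 0 of 12 libraries, so the intervals carry no check of the deletion. Of 11 MGE regulators 10 had an interval in all 12 libraries, as did 9 of 10 pallial regulators, while 7 of 10 housekeeping genes and 4 of 5 microglial genes had none. These lists show where the mark lies and do not test the tissue label, and in bulk nuclei fewer marked nuclei and less mark per nucleus cannot be told apart.

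RefSeq starts for build GRCm38.p6 were matched for 68 of the 92 Kcn genes, and the 250 bases before the start are printed for 5 of them because they span the range from always to never marked and from CG-rich to CG-poor. Each is 5′ to 3′ on the gene's own strand, with every CG dinucleotide, which reads the same on both strands, in capitals. Kcnc1 (chr7:46396218-46396467, plus strand), Kcns3 (chr12:11150843-11151092, minus strand) and Kcne3 (chr7:100176420-100176669, plus strand) had a listed start inside an interval in 12 of 12 libraries. Kcnd2 (chr6:21215096-21215345, plus strand) and Kcnmb4 (chr10:116473524-116473773, minus strand) had a listed start inside an interval in 0 of 12. A gene was counted if any of its listed starts was covered. Kcns3 and Kcne3 have 2 listed starts each, so the covered start need not be the printed one. The annotated gene reached upstream of the matched start over nearly all or all of the window in Kcnc1, Kcns3 and Kcnmb4. In Kcne3 it covered part of the window, and only in Kcnd2 did the window lie outside the gene.
Kcnc1: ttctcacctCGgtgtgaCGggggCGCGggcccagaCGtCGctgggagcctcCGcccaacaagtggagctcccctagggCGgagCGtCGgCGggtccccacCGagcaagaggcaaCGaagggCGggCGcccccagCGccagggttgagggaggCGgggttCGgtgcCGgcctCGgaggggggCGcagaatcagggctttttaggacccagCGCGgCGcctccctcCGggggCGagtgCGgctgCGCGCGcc
Kcns3: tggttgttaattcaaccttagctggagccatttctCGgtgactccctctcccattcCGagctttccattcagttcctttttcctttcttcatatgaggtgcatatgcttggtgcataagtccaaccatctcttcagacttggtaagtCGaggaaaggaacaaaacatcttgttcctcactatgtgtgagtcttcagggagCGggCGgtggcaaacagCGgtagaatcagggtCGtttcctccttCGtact
Kcne3: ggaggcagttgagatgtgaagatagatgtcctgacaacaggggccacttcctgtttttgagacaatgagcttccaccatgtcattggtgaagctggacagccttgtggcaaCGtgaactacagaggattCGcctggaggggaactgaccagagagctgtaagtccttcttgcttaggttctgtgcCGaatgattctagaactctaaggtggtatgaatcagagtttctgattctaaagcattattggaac
Kcnd2: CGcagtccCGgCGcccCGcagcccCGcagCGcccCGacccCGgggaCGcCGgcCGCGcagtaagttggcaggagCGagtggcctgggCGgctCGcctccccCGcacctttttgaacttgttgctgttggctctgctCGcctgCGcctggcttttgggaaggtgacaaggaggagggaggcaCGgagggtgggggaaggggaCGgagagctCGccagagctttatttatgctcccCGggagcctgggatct
Kcnmb4: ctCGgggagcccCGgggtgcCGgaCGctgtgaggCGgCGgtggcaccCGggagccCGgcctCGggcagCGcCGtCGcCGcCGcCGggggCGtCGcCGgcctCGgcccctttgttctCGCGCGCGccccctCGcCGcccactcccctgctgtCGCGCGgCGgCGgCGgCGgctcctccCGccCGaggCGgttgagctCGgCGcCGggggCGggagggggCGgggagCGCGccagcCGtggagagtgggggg

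The printed windows held 30 CG in Kcnc1, 8 in Kcns3, 3 in Kcne3, 22 in Kcnd2 and 43 in Kcnmb4, a range set by the choice of examples. Kcnd2 and Kcnmb4 both lay above the upper quartile of the Kcn genes with no interval, which was 8.5 CG. Over the matched genes the median was 8 CG in the 24 Kcn genes with an interval in all 12 libraries, 10 in the 30 with an interval in some, and 4 in the 14 with none. The same medians over all 16457 autosomal protein-coding genes with a matched start were 14, 14 and 6. At least 1 CG was present in 95.6% of the Kcn windows and in 93.0% of all windows. A listed start lay inside an interval in all 12 libraries for 21 of the 24 always marked Kcn genes (87.5%), against 65.0% of all always marked genes.

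Intervals were present at most Kcn genes in most libraries. At E12.5 the WT libraries had an interval at 54, 67 and 64 Kcn genes (mean 61.7 ± 6.81, SD, n = 3), and the KO libraries at 54, 59 and 62 (58.3 ± 4.04). At E15.5 the WT libraries had one at 40, 48 and 54 (47.3 ± 7.02), and the KO libraries at 54, 47 and 56 (52.3 ± 4.73). The genotypes overlapped at both stages. The mean share of all autosomal protein-coding genes with an interval was 26.2% and 22.0% in E12.5 WT and KO, and 18.6% and 21.6% in E15.5 WT and KO. A total of 37 Kcn genes (40.2%) had an interval in all 12 libraries, against 12.1% of all genes, and 18 (19.6%) had one in none, against 61.2% of all genes. Kcn genes were also longer, with a median of 34.5 kb against 17.5 kb, and the part of length in this share was not tested. Counted by annotated starts alone, 22 to 45 of 68 Kcn genes per library (32.4% to 66.2%) had any listed start in an interval. The share was 9.62% to 24.3% of all genes with a matched start.

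**Figure D1:**
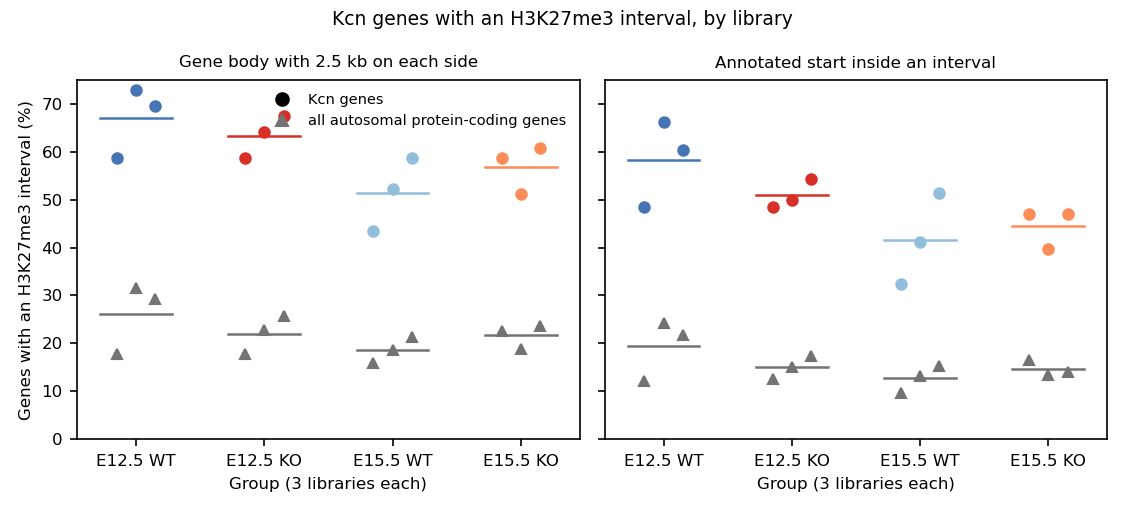
Percent of Kcn genes (circles) and of all autosomal protein-coding genes (triangles) with an H3K27me3 interval, 3 libraries per group with the mean as a bar. The left panel counts the gene body with 2.5 kb on each side and the right panel any annotated start of the gene. In both the Kcn genes lie above all genes in each of the 12 libraries.

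The subfamilies differed in how many members carried the mark throughout. Of the 10 silent modifiers, Kv subunits that form no channel alone but alter those of other Kv subunits, 8 had an interval in all 12 libraries, namely Kcnf1, Kcng1, Kcng2, Kcng3, Kcng4, Kcns1, Kcns2 and Kcns3. Of the 14 two-pore channels, which carry background potassium current, 8 were always marked (Kcnk1, Kcnk3, Kcnk4, Kcnk6, Kcnk9, Kcnk12, Kcnk13 and Kcnk15) and 3 never (Kcnk7, Kcnk16 and Kcnk18). Of the 29 voltage-gated subunits 11 were always marked, 14 in some libraries and 4 in none. Those always marked included the Kv3 subunits Kcnc1, Kcnc2 and Kcnc4, the Kv1 subunits Kcna1, Kcna2 and Kcna7, and Kcnq1 and Kcnh3. Of the 15 inward rectifiers 5 were always marked (Kcnj4, Kcnj5, Kcnj6, Kcnj8 and Kcnj12), of the 8 calcium- or sodium-activated channels 3 (Kcnma1, Kcnn1 and Kcnt1), and of the 15 auxiliary subunits 2 (Kcne3 and Kcnip3). Kcnrg, a regulator of Kv channel assembly with no close relative in the set, had no interval in any library.

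The normalised counts of the always marked genes spread over a wide range, partly because an interval counts in full wherever it touches a gene. Among the highest were those of Kcnq1, Kcnk4, Kcna7, Kcnh3, Kcnj4, Kcnc4, Kcnk12, Kcnk9 and Kcnip3. Kcnk4, which encodes the mechanosensitive channel TRAAK, had 1462 to 3051 over the 12 libraries, but its intervals were shared with Bad, Catsperz, Esrra and Gpr137, so its count is uncertain. The same holds for Kcna7 (1354 to 2588), whose intervals were shared with Gys1, Lhb, Ntf5 and Ruvbl2, and for Kcnh3 (1433 to 2464), shared with Mcrs1. In all, 12 of the 37 always marked Kcn genes shared an interval with another protein-coding gene.

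**Figure D2:**
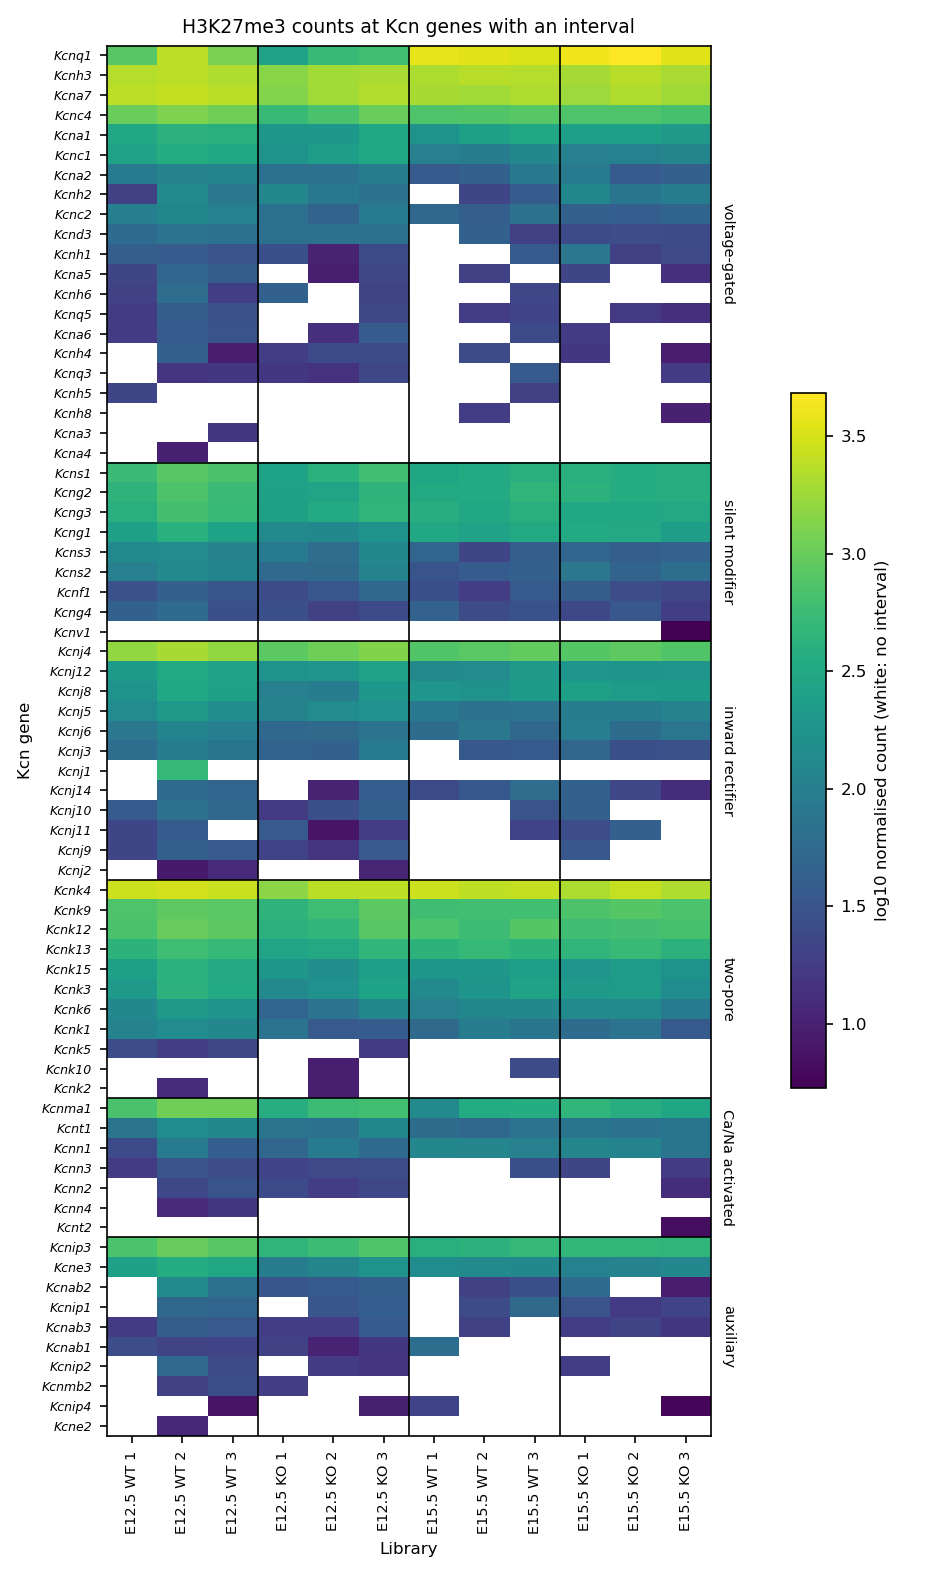
Normalised H3K27me3 count (log10 colour scale, white where no interval was listed) for 70 of the 74 Kcn genes with an interval in at least 1 library, ordered by subfamily and by mean count within it, for each of the 12 libraries. Silent modifiers and two-pore channels are filled across nearly all their upper rows, whereas voltage-gated, inward rectifier and auxiliary genes have many white cells, and Kcnq1 is brightest at E15.5.

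Some Kcn genes lost or gained intervals between groups. Of the 52 Kcn genes with an interval in all 3 E12.5 WT libraries, 37 (71.2%) also had one in all 3 E15.5 WT libraries, close to the 71.7% of all genes. Kcnj9, a GIRK channel subunit, and Kcnk5, the acid-sensitive channel TASK-2, had an interval in every E12.5 WT and no E15.5 WT library, a pattern held by 1.04% of all genes, and no Kcn gene had the reverse pattern (0.0242% of all genes). In the KO libraries 43 of 52 (82.7%) were kept in this sense, against 88.6% of all genes. Kcnab1, a cytoplasmic beta subunit of Kv1 channels, had an interval in every E12.5 KO and no E15.5 KO library (background 0.300%). No Kcn gene had an interval in all 3 libraries of 1 genotype and none of the other at the same stage, a pattern that 0.208% of all genes showed as loss and 0% as gain at E12.5, and 0.0145% and 0.416% at E15.5. These counts move with depth, which was lowest in E15.5 WT.

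The first comparison asked whether loss of Ezh2 lowered the mark at Kcn genes at E12.5. The 47 Kcn genes with an interval in all 6 libraries were tested with edgeR's quasi-likelihood test among 3140 such genes, so a gene that lost its interval in any library could not be called. Counts fell by a median of 0.55 on the log2 scale over the 47 Kcn genes and by 0.57 over all genes, and 42 of the 47 had a negative change. With TMM scaling, which centres the bulk of the genes, the medians were 0.01 and -0.05, so the shift at Kcn genes was that of all genes and its size rests on the recovered depth. Only Kcnq1, which encodes the slow delayed-rectifier channel Kv7.1, passed an adjusted p of 0.05, and it was lower in KO. This is 1 of 47 lower, where 4.04% of all genes were called lower and 0% higher. In 16 of the 47 every KO library lay below every WT library, against 33.0% of all genes.

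Kcnq1 lies at chr7:143106877-143427050 (GRCm38) and contains the gene of the antisense RNA Kcnq1ot1 (chr7:143213111-143296547), whose transcription from the paternal allele silences the imprinted cluster. At E12.5 its normalised count was 813, 2448 and 1236 in WT and 269, 526 and 607 in KO. The KO libraries were all below the WT libraries. On the log2 scale Kcnq1 fell by 1.68 (SE 0.41, edgeR adjusted p = 0.0323). Over 17 alternatives the adjusted p ranged from 6.73e-06 to 0.278, with the call held in 12, and with TMM scaling the change was -1.12 (adjusted p = 0.166). The alternative limited to genes of like covered length left Kcnq1 out here, because its covered length differed too much between the genotypes. Without E12.5 WT replicate 2, the deepest library, the edgeR adjusted p was 0.0751, and it was 0.26 when E12.5 KO replicate 1 was left out.

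Kcne3 encodes a single-pass beta subunit that assembles with Kcnq1 and other Kv channels. Its normalised count was 262, 365 and 313 in E12.5 WT and 93.1, 118 and 173 in E12.5 KO, again without overlap. The log2 change of -1.29 (SE 0.36) had an edgeR adjusted p of 0.0523 with the recovered depth, and -0.78 with an adjusted p of 0.0321 with TMM scaling, where it was the only Kcn gene called among 1.21% of all genes called lower and 0.287% higher. The adjusted p ranged from 0.0027 to 0.266 over its 17 alternatives. The silent modifier Kcng1 had 255, 404 and 274 in WT and 134, 128 and 175 in KO, and its change of -1.10 on the log2 scale (SE 0.35) did not pass (edgeR adjusted p = 0.086).

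The two-pore channel gene Kcnk1 (TWIK-1), named after its values were seen, had 111, 142.5 and 124 in E12.5 WT and 71.0, 35.3 and 38.5 in KO, without overlap. Its change of -1.40 on the log2 scale (SE 0.41) did not pass (edgeR adjusted p = 0.0649, range over 17 alternatives 0.0148 to 0.35).

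Further examples were also not called. Kcnc1 had 268, 357 and 310.3 in E12.5 WT and 173, 233 and 319 in KO, so that the groups overlapped (log2 change -0.37, SE 0.35, edgeR adjusted p = 0.408). Kcnma1, the large-conductance calcium-activated BK channel, had 687, 1103 and 1083 in WT and 375, 569.7 and 609 in KO (-0.89, SE 0.33, adjusted p = 0.12), without overlap. Kcnd3 (Kv4.3) had 57.6, 71.8 and 68.7 in WT and 64.9, 68.7 and 67.3 in KO, which overlapped, with a log2 change of 0.01 (SE 0.37). The number of Kcn genes called depended on single libraries. It was 15 without E12.5 KO replicate 3 (900 of all 3144 genes lower, 2 higher) and 5 without E12.5 WT replicate 1 (474 of 3373 lower, 3 higher). It was 0 without E12.5 WT replicate 2 (86 of 3141 lower, 8 higher) and 0 when E12.5 KO replicate 1 was left out (11 of 3406 lower, 0 higher).

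At E15.5 the same comparison called 0 of 38 Kcn genes by edgeR, against 0.0742% of all genes lower and 0.408% higher. An unadjusted p under 0.05 was found for 2 of the 38 (Kcns2 and Kcnk9) and for 303 of all 2695 genes, and DESeq2 called 0 Kcn genes. The median log2 change was -0.05 over the 38 Kcn genes and -0.01 over the 2695 genes tested. In 1 of the 38 every KO library was below every WT library (8.09% of all genes) and in 4 every one was above (11.1%). Kcnq1 had 3719, 3524 and 3269 in WT and 4153, 4832 and 3426 in KO, which overlapped (log2 change 0.24, SE 0.14, edgeR adjusted p = 0.56). Kcne3 had 145, 137 and 126 in WT and 105, 111 and 126 in KO (-0.25, SE 0.16, adjusted p = 0.576). A change could only be seen above the spread of 3 libraries, and a missed threshold does not show that the genotypes were alike.

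Over both stages with stage as a term, 0 of 37 Kcn genes were called by edgeR, where 0.923% of all 2492 genes were called lower and 0.0401% higher. An unadjusted p under 0.05 was found for 8 of the 37 and for 526 of the 2492, so the Kcn share was near that of all genes. TMM scaling called 1 (Kcne3, lower by 0.51 on the log2 scale, adjusted p = 0.0383, with a range over its 23 alternatives of 0.00211 to 0.307, beside 1.97% of all genes lower and 2.13% higher), and DESeq2 called 3, with 113 of all genes lower and 104 higher. The test of whether the KO effect differed between stages called 0 of 37 Kcn genes, against 0% of all genes with a more negative and 0.562% with a more positive effect at E15.5. An unadjusted p under 0.05 was found for 10 of the 37 and for 686 of the 2492, again near the share of all genes, and DESeq2 called 0 Kcn genes. For Kcnq1 the difference of effects was 1.92 (SE 0.50) with an edgeR adjusted p of 0.088, which ranged from 0.014 to 0.213 over 23 alternatives. Without E12.5 KO replicate 3 this test called 16 Kcn genes and 957 of all genes.

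**Figure D3:**
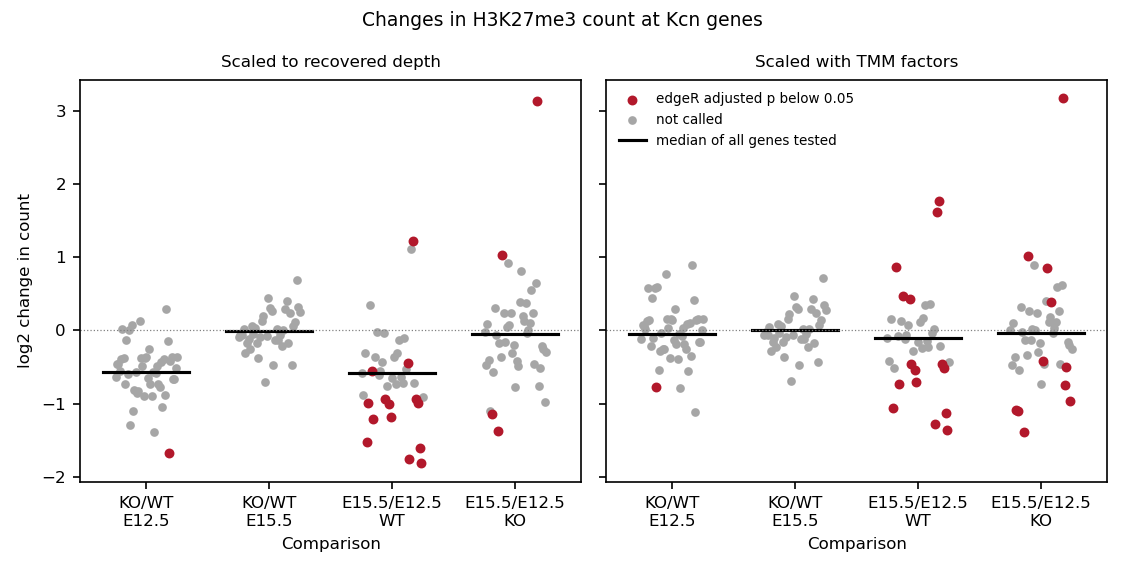
Log2 change in count of each Kcn gene tested (points) in 4 comparisons, red where the edgeR adjusted p was below 0.05, with the median of all genes tested as a black bar. The left panel scales libraries to the recovered depth and the right panel with TMM factors, and the cloud of Kcn genes follows the bar of all genes in each comparison, with Kcnq1 far above it at 3.15 between stages in KO.

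The stages were then compared within WT, where the E12.5 libraries are the same ones as in the genotype comparison. Of 37 Kcn genes 13 were lower and 1 higher at E15.5 by edgeR with the recovered depth, against 35.8% of all 2624 genes lower and 1.71% higher, so the share of Kcn genes called was near that of all genes. The medians were -0.64 for the Kcn genes and -0.58 for all. With TMM scaling 10 were lower and 5 higher (17.1% and 10.3% of all genes), and all 10 were among the 13. In 21 of the 37 every E15.5 library lay below every E12.5 library, and in 2 above, against 52.0% and 3.93% of all genes. Without E15.5 WT replicate 2 the number of Kcn genes called was 0, beside 83 of all 2697 genes lower and 2 higher. It was 6 without E15.5 WT replicate 1 (194 of 2995 genes lower, 6 higher) and 6 without E12.5 WT replicate 3 (237 of 2626 lower, 4 higher). Without E12.5 WT replicate 1 it was 22 (1351 of 2759 lower, 94 higher), so the Kcn count moved with that of all genes.

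The genes lower at E15.5 in WT came from several subfamilies. Kcnc1 fell from 268, 357 and 310.3 to 104, 96.4 and 123, which is -1.53 on the log2 scale (SE 0.21, edgeR adjusted p = 0.00807), and kept the call in 17 of 18 alternatives, whose adjusted p ran from 1.51e-05 to 0.0547. Kcnc2, the other Kv3 gene of fast-spiking cells, fell from 99.7, 121 and 105 to 51.9, 42.2 and 69.3 (-0.99, SE 0.27, adjusted p = 0.0299), a call lost with TMM scaling (adjusted p = 0.0933). In neither gene did the stages overlap. Kcnma1 fell from 687, 1103 and 1083 to 135, 352 and 361 (-1.75, SE 0.39, adjusted p = 0.0178). Its length inside intervals fell too, from 38.4, 64.4 and 60.4 kb to 5.6, 28.6 and 22.4 kb. Counts hold only listed intervals, and the part of lost intervals in this fall was not tested. Among genes of like covered length, 6 of 25 Kcn genes were called lower and 1 higher, beside 419 and 31 of all 1663 genes.

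All 3 Kcns genes were called lower. Kcns3, the Kv9.3 modifier found in parvalbumin interneurons, fell from 133, 143 and 113 to 48.4, 22.1 and 41.6 (log2 change -1.82, SE 0.33, edgeR adjusted p = 0.0122). Kcns2 fell from 102, 129.9 and 116 to 31.1, 38.2 and 43.3 (-1.61, SE 0.25, adjusted p = 0.00886). Kcns1, which shares an interval with Wfdc5, fell from 554, 819.7 and 688 to 294, 346 and 395 (-0.99, SE 0.20, adjusted p = 0.0148). The E15.5 values of each lay below all its E12.5 values.

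Among channels of other kinds, the inward rectifier Kcnj4, which shares an interval with Kdelr3, fell from 1587, 1959 and 1600.4 to 768, 842 and 948 (log2 change -1.01, SE 0.14, edgeR adjusted p = 0.00834). The GIRK subunit Kcnj5 fell from 142, 206 and 150.3 to 83.0, 68.3 and 71.1 (-1.18, SE 0.26, adjusted p = 0.0171). Kcne3 fell by 1.21 (adjusted p = 0.0106) and Kcnip3, a calcium-binding partner of Kv4 channels, by 0.94 (adjusted p = 0.0129). Kcnc4, which shares an interval with Slc6a17, fell by 0.55 and the two-pore channel Kcnk9 by 0.45, less than the median of all genes. With TMM scaling these changes became -0.08 (edgeR adjusted p = 0.516) and 0.02 (adjusted p = 0.889). Of the 5 called higher with TMM scaling, Kcnq1 was also higher with the recovered depth. Kcnn1, Kcng1 and Kcnh3, which are named here after their values were seen, were not called with it, and the log2 changes of Kcng1 and Kcnh3 turned from -0.02 and -0.04 to 0.47 and 0.42. Kcnn1 shares an interval with Ccdc124.

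**Figure D4:**
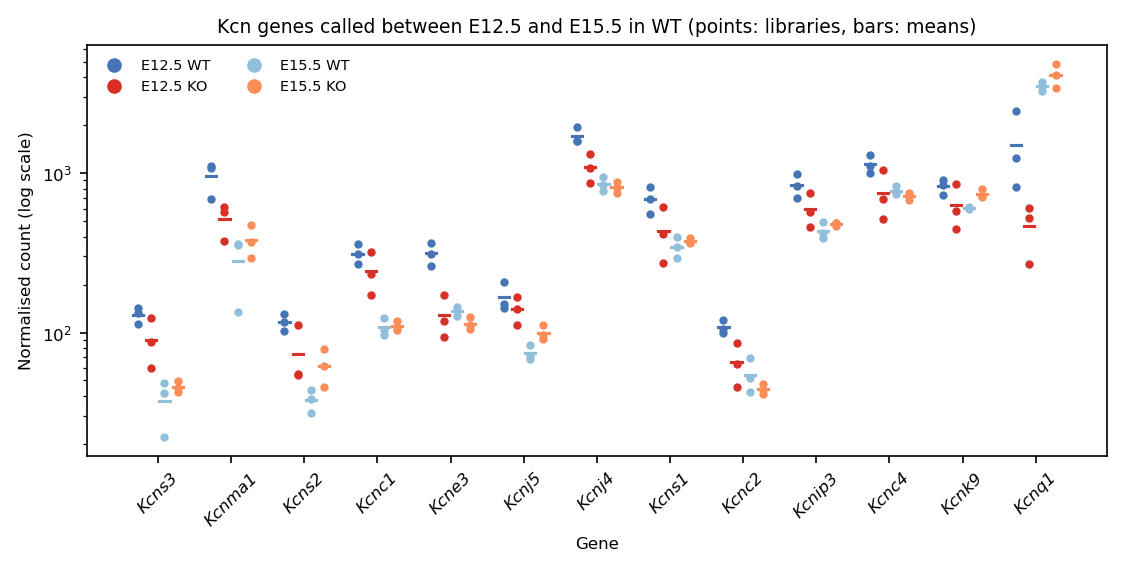
Normalised count on a log axis for 13 of the 14 Kcn genes called between E12.5 and E15.5 in WT, with 1 point per library and a bar for the mean of each group of 3. In 12 genes every E15.5 WT point lies below every E12.5 WT point, and Kcnq1 lies above in both genotypes.

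Within the KO, where the depths of the stages were closer (0.212 to 0.272 and 0.179 to 0.346), 43 Kcn genes were tested and 4 were called by edgeR. Kcnd3 and Kcnc1 were lower at E15.5, where 5.49% of all 3003 genes were, and Kcng1 and Kcnq1 were higher, where 4.13% were. With TMM scaling 7 were lower and 4 higher (7.69% and 8.82% of all genes), including these 4. The medians with the recovered depth were -0.06 for the Kcn genes and -0.05 for all genes. In 5 Kcn genes every E15.5 library lay below every E12.5 library and in 3 above, against 12.4% and 11.4% of all genes.

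Kcnc1 fell from 173, 233 and 319 in the E12.5 KO to 103, 107 and 118 in the E15.5 KO (log2 change -1.14, SE 0.33, edgeR adjusted p = 0.0205), so that it was called lower at E15.5 in both genotypes. Kcnd3, a Kv4 channel of the A-type current, fell from 64.9, 68.7 and 67.3 to 24.7, 26.5 and 25.6 (-1.38, SE 0.41, adjusted p = 0.0212). Kcng1 rose from 134, 128 and 175 to 338, 323 and 234 (1.03, SE 0.32, adjusted p = 0.0312). In none of these did the stages overlap. Each call was lost without some libraries: for Kcnc1 the adjusted p over its alternatives ran from 4.09e-05 to 0.144, for Kcnd3 from 0.00165 to 0.119 and for Kcng1 from 1.98e-05 to 0.209. The number of Kcn genes called was 1 without E12.5 KO replicate 2 (112 of all 3043 genes lower, 92 higher) and 2 without E12.5 KO replicate 1 (138 of 3269 lower, 87 higher). It was also 1 without E15.5 KO replicate 1 (126 of 3047 lower, 80 higher), replicate 2 (113 of 3143 lower, 77 higher) or replicate 3 (68 of 3030 lower, 106 higher).

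Kcnq1 was the Kcn gene called higher at E15.5 in both genotypes. In WT it rose from 813, 2448 and 1236 to 3719, 3524 and 3269, without overlap (log2 change 1.22, SE 0.37, edgeR adjusted p = 0.041, range over 18 alternatives 4.97e-08 to 0.117). In the KO it rose from 269, 526 and 607 to 4153, 4832 and 3426 (log2 change 3.15, SE 0.32, edgeR adjusted p = 2.64e-10). The call held in the 17 alternatives that tested the gene, with adjusted p from 3.41e-55 to 0.00512. The alternative limited to genes of like covered length left Kcnq1 out in the KO, because its covered length differed too much between the stages.

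The stretch of Kcnq1 inside intervals was 28.8, 91.4 and 53.6 kb in E12.5 WT, 17.0, 27 and 25.2 kb in E12.5 KO, 70.2, 84.0 and 86.0 kb in E15.5 WT, and 100.5, 102 and 94.4 kb in E15.5 KO. The KO libraries were therefore the lowest of the groups at E12.5 and the highest at E15.5. Between stages the covered length rose by 75.9 kb in the KO (23.1 ± 5.33 to 99.0 ± 4.12 kb, SD, n = 3; exact two-sided permutation p = 0.1, the smallest that 3 against 3 allows) and differed by 22.1 kb in WT (57.9 ± 31.5 to 80.0 ± 8.61 kb, exact p = 0.4). The KO and WT libraries did not overlap at E12.5 or at E15.5 (exact p = 0.1 at each stage). Covered length moves with depth, and the WT library with 91.4 kb was the deepest.

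More of the change in covered length lay outside Kcnq1ot1, which spans 83437 of the 320174 bp of Kcnq1, and both parts changed. Between stages in the KO it rose from 3.4 to 15.15 kb inside Kcnq1ot1 and from 19.67 to 83.87 kb outside (exact permutation p = 0.1 for each). In WT it rose from 8.85 to 14.15 kb inside (exact p = 0.1) and from 49.07 to 65.88 kb outside (exact p = 0.4). Between 5.45% and 9.69% of the count of Kcnq1 fell inside Kcnq1ot1, of which 2.40% to 19.8% was covered. All 12 libraries had an interval at the Kcnq1 start. The longest interval in 11 of the 12 libraries lay between 246.52 and 285.32 kb from it, well past Kcnq1ot1, and measured 25.8 to 37.4 kb in the 6 E15.5 libraries, 11.0 to 36.4 kb in E12.5 WT and at most 7.8 kb in E12.5 KO. The reads were not assigned to parental alleles in the files used here.

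**Figure D5:**
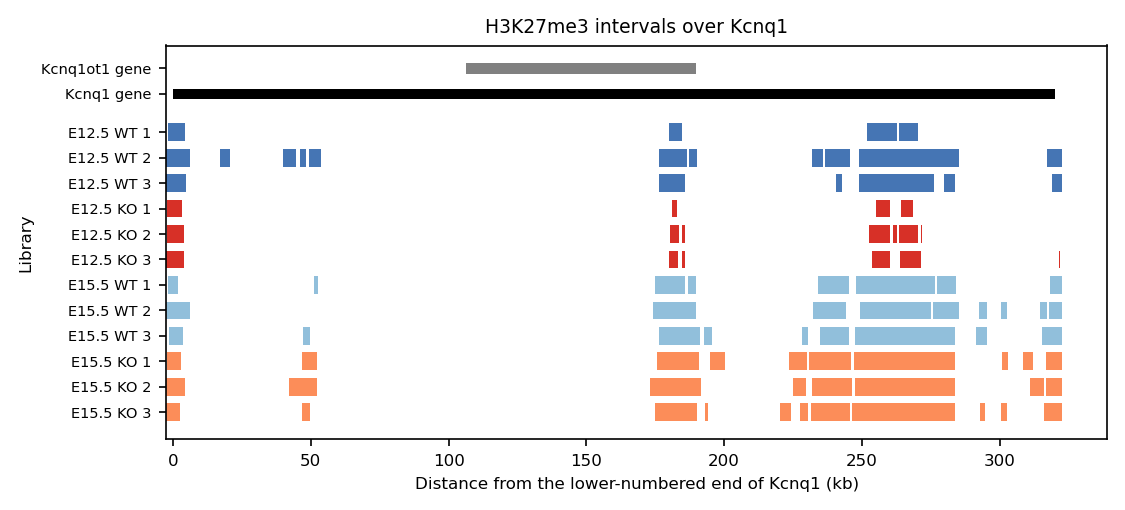
H3K27me3 intervals (coloured blocks) over Kcnq1 in each of the 12 libraries, against the distance in kb from the lower-numbered end of the gene, with the Kcnq1 and Kcnq1ot1 genes above. The E12.5 KO libraries have short blocks near the start, near 180 kb and near 260 kb, and the E15.5 libraries of both genotypes have long blocks between about 230 and 284 kb.

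Several channels of mature neurons carried little or no mark. Kcnd2, a Kv4 subunit, had no interval in any library, nor did Kcnb2 and Kcnh7, whereas the Kv4 gene Kcnd3 had one in 11 libraries. Kcnq3 (7 libraries), Kcnn2, a small-conductance calcium-activated channel (6 libraries), and Kcnip1, a Kv4 partner found in interneurons (9 libraries), had intervals in some, with normalised counts of at most 36.4, 30.8 and 55.5. Kcnh1 had an interval in every E12.5 and every E15.5 KO library but in 1 of 3 E15.5 WT libraries. Among always marked genes Kcna1 (173 to 419), Kcnk3 (130 to 423) and Kcnj6 (52.0 to 113.5) were called in no comparison, with the recovered depth or with TMM scaling.

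Other genes of potassium channel complexes were taken from a list of 20 that held HCN channels, Kv4 and BK auxiliary proteins and the sulfonylurea receptors, among others. Of these 7 had an interval in all 12 libraries (Abcc8, Cntnap1, Dpp10, Hcn2, Hcn4, Lrrc26 and Lrrc38) and 7 in none. In the genotype comparisons 0 of the 7 tested were called by edgeR, with 0 of 7 at an unadjusted p under 0.05 at E12.5 and 3 of 7 at E15.5, where 303 of all 2695 genes had one. Between stages in WT 4 were lower (Dpp10, Cntnap1, Lrrc38 and Hcn4) and 0 higher, beside 35.8% and 1.71% of all genes, and in the KO 0 were called, beside 5.49% and 4.13%. Hcn4, a pacemaker channel, fell from 172 ± 49.6 to 87.9 ± 14.1 in WT (SD, n = 3; log2 change -0.97, SE 0.29, edgeR adjusted p = 0.0387). Lrrc38, a gamma subunit of BK channels, fell from 324 ± 56.0 to 156 ± 14.4 (-1.06, SE 0.21, adjusted p = 0.0136).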

How the data were processed

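The authors deposited 1 interval list per library with a whole-number count and a score for each interval. The submitters' processing notes name cutadapt, Bowtie2, SAMtools, Picard, deepTools and SICER with builds GRCm38 and mm10; their versions, roles and thresholds are not given in the sources used here. The counts as deposited were summed over intervals that overlapped each gene by at least 1 bp. The deposited score of 1-window intervals gave the depth of each library, as a mean count per window under a Poisson model. That the score follows this model was assumed and is stated by no label. The 1-window intervals used numbered from 4 (E12.5 KO replicate 1) to 846 (E15.5 KO replicate 3) per library.

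Genes with an interval in every library compared were tested with edgeR 4.0.16 (quasi-likelihood, library sizes proportional to that depth, Benjamini-Hochberg over all genes tested, threshold 0.05) in R 4.3.3. Each comparison was fitted on its own groups. Alternatives were TMM factors, DESeq2 1.42.0, other filters, gene windows and interval lists, each library left out, and 2 chosen after seeing the data (genes with like covered length, and robust quasi-likelihood). The statistics were tested on simulated counts with 200 genes changed. A 2-fold change was recovered in 1.5% of these genes for KO against WT at E12.5, 15% at E15.5 and 60.5% over both stages. It was recovered in 0% for the difference between stages, 0.5% between stages in WT and 10.5% in KO. A 4-fold change was recovered in 72.5% to 99%. A gene not called may therefore still have changed 2-fold. The simulation raised and lowered equal numbers of genes, with no shift of all genes. The real medians were -0.57 for KO against WT at E12.5 and -0.58 between stages in WT, so these shares need not hold there. Named were Kcn genes called in any comparison, those present in all libraries of 1 group and none of another, the 10 with the highest mean count, and a list of 14 neuronal channels. The members and lists were chosen with earlier results of these data known. The labels call the replicates biological and say that embryos of 1 genotype were pooled where applicable. They say no more of them, so p-values measure the spread between these libraries. Some named genes are not reported here; they remain in the counts and fits. Heterozygous samples were not analysed here.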

Additional observations from a re-analysis of the deposited data

How the results depend on the processing

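The number of Kcn genes called between KO and WT at E12.5 (1) was 2 with DESeq2 or prorated counts, 0 with genes that had an interval in most libraries, gene ends only or like covered length, 3 with lists of equal length or robust quasi-likelihood, and 0 to 15 with 1 library left out. At E15.5 it stayed 0 in the alternatives run. Over both stages (0) it was 1 with TMM factors and 3 with DESeq2, and the difference between stages (0) was 1 with prorated counts and 0 to 16 with 1 library left out. Between stages in WT (14) it was 7 with like covered length and 0 to 22 with 1 library left out, and in KO (4) it was 11 with TMM factors, 8 with DESeq2, 1 with genes that had an interval in most libraries, 2 with like covered length and 1 to 5 with 1 library left out. The cause of these moves was not tested. Correlations of deviations from the group mean between same-numbered WT and KO libraries were 0.115, 0.0589 and 0.0386 at E12.5. At E15.5 they were -0.235, -0.167 and -0.361. Between differently numbered libraries they ran from -0.0903 to 0.0448 at E12.5 and from -0.0840 to 0.286 at E15.5. With 3 libraries per group these values cannot decide whether replicate numbers pair the libraries. With the replicate number as a block the counts were 4 at E12.5, 1 for the difference between stages and 1 between stages in KO, and within 1.5 times elsewhere.

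The direction turned for Kcnk9 over both stages with DESeq2 (0.23) and, between stages in WT, for Kcnc4 with DESeq2 (0.0255), Kcng1 with TMM (0.47) and DESeq2 (0.56), Kcnh3 with TMM (0.42) and DESeq2 (0.52) and Kcnk9 with TMM (0.0208) and DESeq2 (0.12). Over all genes the E12.5 count of 127 lower and 0 higher became 38 and 9 with TMM and 98 and 73 with DESeq2, and the WT stage count of 939 and 45 became 449 and 271 and 382 and 373.

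The mean number of Kcn genes with an interval was 52.0, 49.7, 42.7 and 45.3 with lists of equal length in E12.5 WT, E12.5 KO, E15.5 WT and E15.5 KO. With only intervals above the median score it was 49.3, 46.0, 34.0 and 39.7 in the same order of groups. With gene ends only it was 51.3 in E12.5 KO and 47.0 in E15.5 KO. The recovered depth runs from 0.0751 to 0.698 reads per 200 bp, so an absent interval in a shallow library does not show an absent mark.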
